A study of Mus musculus with 14 samples.

Results

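The transcripts of 9 genes of the complement system, out of 55335 genes counted, were followed through single-cell RNA sequencing of the mouse spinal cord by matching their symbols in the gene lists of the files. They were the 3 chains of C1q (C1qa, C1qb and C1qc), the components C3 and C4b, the anaphylatoxin receptors C3ar1 and C5ar1, the integrin chain Itgam and the inhibitor Serping1. Each of 14 libraries held cells from a whole cord of mice at P115-120 day, an age the study places at mid-disease stage, and none of the groups differed in age label. There were 4 groups. The SOD1G93A group (3 libraries) came from the strain B6SJL-Tg(SOD1*G93A)1Gur/J, which carries a human SOD1 transgene with a mutation found in familial amyotrophic lateral sclerosis, driven by the human SOD1 promoter and so not limited to 1 cell type. The Clec7a-KO group (4 libraries) came from the strain B6.129S6-Clec7atm1Gdb/J, in which Clec7a, the gene of the fungal glucan receptor Dectin-1, is disrupted in every cell. The SOD1G93A/Clec7a-KO group (4 libraries) carried both alterations. The nTg group (3 libraries) carried neither, and its strain is labelled only nTg. The comparisons ask what the transgene changes with and without Clec7a, and what Clec7a loss changes with and without the transgene. The strain names differ in genetic background, so background and alleles cannot be told apart. The labels do not say that each library was a separate animal, and p-values below measure the spread between libraries.

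C1q recognises antibodies, apoptotic material and, in the developing and diseased nervous system, synapses, and its 3 chains assemble into 1 hexameric protein. Its binding starts the classical pathway, in which C4 and then C3 are cleaved and deposited on the target, while Serping1 (C1 inhibitor) blocks the proteases that follow C1q. Receptors read the products: Itgam is the alpha chain of complement receptor 3, which binds deposited C3 fragments and drives phagocytosis, and C3ar1 and C5ar1 bind the small peptides released from C3 and C5. In the nervous system microglia are known as the main source of C1q and reactive astrocytes as a source of C3.

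After filtering, 89225 of 108892 barcodes remained, from 2554 to 10220 per library, with total counts of unique molecular identifiers (UMIs) between 28819852 and 141204910 per library. Clec7a itself gave 755 to 1767 UMIs per nTg library and 57449 to 101134 per SOD1G93A library, against 33 to 110 in Clec7a-KO and 74 to 240 in SOD1G93A/Clec7a-KO. The genotypes in the labels thus matched the targeted gene in every library. Xist exceeded the Y-linked gene Ddx3y in 2 of 3 nTg, 1 of 4 Clec7a-KO, 0 of 3 SOD1G93A and 1 of 4 SOD1G93A/Clec7a-KO libraries, so sex was not balanced between groups. Library numbers in the labels were also uneven, and the 3 libraries numbered 13, 15 and 16 were all of Clec7a-deficient groups (SOD1G93A/Clec7a-KO replicates 3 and 4, and Clec7a-KO replicate 4). Any pair of libraries shared 2 to 44 cell barcodes.

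Cells were grouped into classes by marker genes, and each class name stands for clusters that resembled that type. Microglia, with markers such as P2ry12 and Tmem119, made up 49514 cells (55.5%). Endothelial cells numbered 11640, ependymal cells 7668, astrocytes 5220, oligodendrocyte precursors 3938, mural cells of vessel walls 1750, neurons 1162, T and NK cells 707, border-associated macrophages 556, neutrophils 116 and fibroblasts 84. A further 6870 cells were left unnamed. To compare classes, a gene's UMIs in a class were given as counts per 1e+06 UMIs of that class (CPM) in each library with at least 20 cells of it. Neutrophils reached that number in 2 libraries, both Clec7a-KO, and fibroblasts in none.

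The 3 C1q genes were highest in microglia. C1qa stood at 8471 ± 2914 CPM there (SD, n = 14), at 5404 ± 2135 in border-associated macrophages (n = 13) and at 1704 ± 2501 in T and NK cells (n = 10), and each gap between neighbours in this order was smaller than the sum of their SDs, which hold the differences between the 4 groups too. No nTg library had 20 T and NK cells. In that class C1qa ran from 14 CPM in Clec7a-KO replicate 2 (2 UMIs) to 8036 in SOD1G93A/Clec7a-KO replicate 2. C1qc was at 5380 ± 901 CPM in microglia against 3605 ± 851 in border-associated macrophages, a gap slightly larger than the sum of the SDs. Microglia held 96.83% of all C1qa UMIs, 96.69% of C1qb and 97.01% of C1qc.

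Levels of C1qa in other glia and in vessel cells were low but not 0, from 171 ± 192 CPM in oligodendrocyte precursors to 420 ± 599 in mural cells (n = 14 each). The part of free microglial RNA in the C1q counts of those other classes, and of T and NK cells, was not tested.

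The receptors were also myeloid genes, with different leading classes. C3ar1 was at 465 ± 73.5 CPM in microglia and 419 ± 103 in border-associated macrophages, levels within their spread, and microglia held 97.82% of its UMIs. C5ar1 was highest in border-associated macrophages (649 ± 453 CPM, n = 13) and neutrophils (466 ± 91.5, n = 2), ahead of microglia (232 ± 116). The gap between neutrophils and microglia was larger than the sum of their SDs, and that between macrophages and neutrophils was smaller. Itgam was at 627 ± 18.3 CPM in the neutrophils of 2 libraries, at 421 ± 129 in microglia and at 102 ± 46.9 in border-associated macrophages, and the drop between the last pair exceeded the SDs.

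C3, C4b and Serping1 had their highest levels outside microglia. C3 reached 518 ± 553 CPM in astrocytes (n = 14) and 316 ± 40.2 in neutrophils (n = 2), against 13.7 ± 12.1 in microglia. The astrocyte mean covers all groups and the neutrophil mean only Clec7a-KO replicates 1 and 2. In these libraries C3 was at 344 and 287 CPM in neutrophils, above the 123 and 56.8 of astrocytes. The class with most of the C3 UMIs differed between groups. Astrocytes held 64.9% ± 8.66 of them in nTg and 34.4% ± 8.88 in SOD1G93A, and microglia, the most numerous class, 7.69% ± 4.83 and 58.1% ± 9.95. These are shares of captured UMIs, which also follow the cells recovered, and not shares of the cord. Microglia numbered 959 to 2423 per nTg and 3909 to 5937 per SOD1G93A library, and astrocytes 540 to 588 and 201 to 323. C4b was at 266 ± 188 CPM in astrocytes, 188 ± 106 in border-associated macrophages and 158 ± 170 in oligodendrocyte precursors, and at 3.20 ± 2.39 in microglia. Those SDs hold large differences between groups: in nTg alone C4b was at 39.5 to 109 CPM in astrocytes and 61.5 to 87.9 in the macrophages of 2 libraries, above the 4.33 to 16.6 of precursors. Among classes with a level by library, Serping1 was highest in mural cells (151 ± 45.6 CPM), followed by astrocytes (56.2 ± 61.1) and ependymal cells (22.6 ± 20.2), and stood at 0.27 ± 0.17 in microglia. The 84 fibroblasts, too few for a level by library, held 12.72% of Serping1 UMIs and, pooled over libraries, stood at 2216 CPM against 143 in mural cells. Unnamed cells held 1520 Serping1 UMIs, beside 1732 in ependymal cells, 905 in astrocytes and 850 in mural cells, so part of its source class is not known. With the complement genes left out of the clustering, or with coarser clusters, the class with the highest level, among classes with a level in at least 3 libraries and so without neutrophils, was the same for 9 of 9 genes. Of the members only C3, C4b and Serping1 had entered the clustering, so leaving members out bears directly on these 3 alone.

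**Figure D1:**
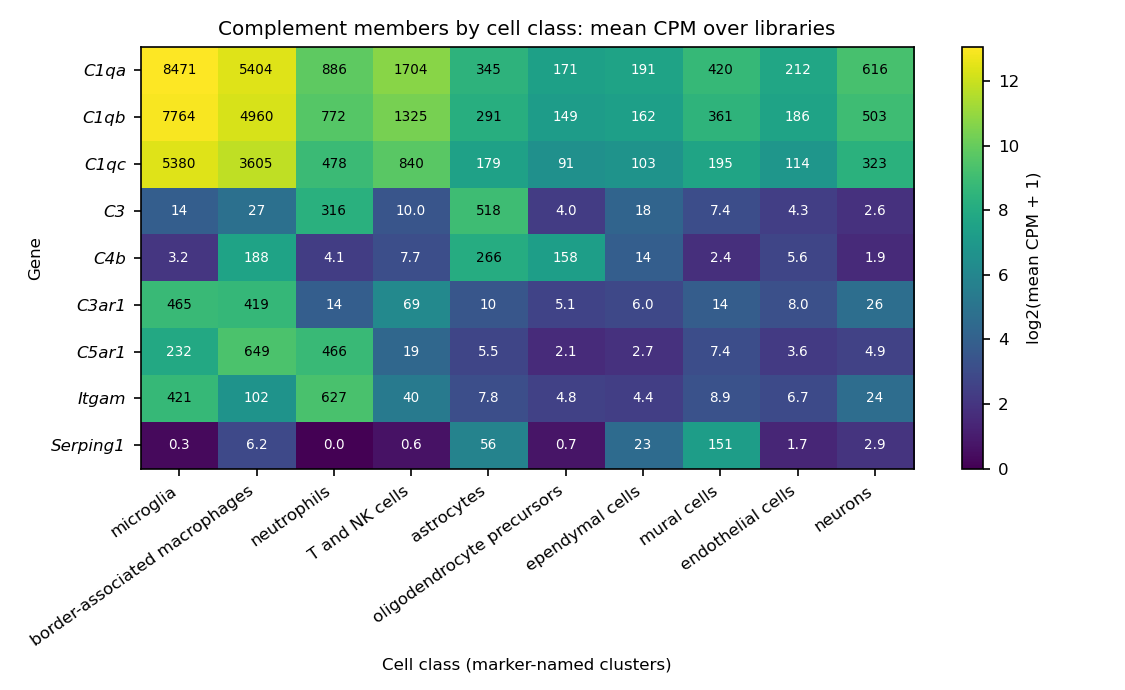
Mean CPM of the 9 complement genes (rows) in each cell class (columns), averaged over libraries with at least 20 cells of the class; colour is log2(mean CPM + 1) and the number is the mean CPM. The C1q genes, C3ar1 and Itgam are high in microglia and macrophages, C3 and C4b in astrocytes, C4b also in oligodendrocyte precursors, and Serping1 in mural cells; the neutrophil column rests on 2 libraries.

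The C1q chains lie side by side on mouse chromosome 4 (GRCm38, GENCODE vM21), all on the minus strand: C1qb at chr4:136880129-136886187, C1qc at chr4:136889804-136893065 and C1qa at chr4:136895917-136898803, within 18675 bases. Upstream sequences of C1qb and C1qc are shown because these neighbours moved together in microglia, and were searched for the motif of PU.1 (Spi1), a factor that microglia need. They are the RefSeq promoter windows (GRCm38.p6) of C1qb, chr4:136886201-136886450, and of C1qc, chr4:136893066-136893164, both on the minus strand and written 5′ to 3′. Capitals mark GAGGAA, the core of the PU.1 motif, or its reverse complement TTCCTC.
C1qb: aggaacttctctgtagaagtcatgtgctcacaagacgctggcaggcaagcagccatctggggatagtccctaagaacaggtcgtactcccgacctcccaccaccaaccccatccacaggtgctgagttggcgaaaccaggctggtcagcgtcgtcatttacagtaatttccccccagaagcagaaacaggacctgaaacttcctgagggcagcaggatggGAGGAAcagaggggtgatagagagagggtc
C1qc: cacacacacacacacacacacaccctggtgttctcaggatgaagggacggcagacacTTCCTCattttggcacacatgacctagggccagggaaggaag
The match lay 24 bases before the RefSeq start of C1qb, and 187 bases before that of C1qc, which lies inside the GENCODE gene, so that the printed bases stop short of it. On either strand, GAGGAA occurred in 23.3% of 32841 promoter windows, and in 3 of the 6 complement genes with a window in the table (C1qb, C1qc and Itgam). A match is only a match of letters.

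C1q transcripts rose in the microglia of SOD1G93A cords. Counts of each class were summed per library and tested with edgeR's quasi-likelihood test, with Benjamini-Hochberg adjustment over all genes of the class and an adjusted p under 0.05 as threshold, and from here CPM are TMM-scaled, that is, relative to library sizes adjusted so that most genes do not shift. C1qa stood at 4992, 5324 and 5535 CPM in the nTg libraries, at 6312, 5409, 4661 and 4638 in Clec7a-KO, at 14178, 12801 and 10871 in SOD1G93A, and at 12405, 17405, 11714 and 8823 in SOD1G93A/Clec7a-KO. All libraries with the transgene lay above all without it. C1qa was 2.39-fold higher in SOD1G93A (12616 ± 1661 CPM, n = 3) than in nTg (5284 ± 274, n = 3), a difference of 1.26 ± 0.24 (SE) in log2 units (edgeR adjusted p = 0.00123).

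C1qb and C1qc moved likewise. C1qb was at 5074, 5501 and 5573 CPM in nTg, 5962, 5550, 5036 and 7181 in Clec7a-KO, 11566, 10688 and 9097 in SOD1G93A and 9580, 13063, 9622 and 9286 in SOD1G93A/Clec7a-KO. C1qc was at 3480, 3711 and 3858 CPM in nTg, 3940, 3843, 3340 and 5241 in Clec7a-KO, 7336, 7364 and 6608 in SOD1G93A and 6847, 8093, 7498 and 7290 in SOD1G93A/Clec7a-KO. For both genes the libraries with and without the transgene did not overlap on this scale, and Clec7a-KO replicate 4 was the highest without it. Against nTg, SOD1G93A microglia had 1.94-fold more C1qb (log2 fold change 0.96 ± 0.20, edgeR adjusted p = 0.00257) and 1.93-fold more C1qc (0.95 ± 0.19, adjusted p = 0.00164).

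The same difference was present on the Clec7a-deficient background. C1qa was 1.26 ± 0.21 log2 units higher in SOD1G93A/Clec7a-KO than in Clec7a-KO (edgeR adjusted p = 0.000238), C1qb 0.81 ± 0.18 (adjusted p = 0.00198) and C1qc 0.86 ± 0.16 (adjusted p = 0.0007). Together the 3 chains took 1.74% ± 0.06 of all microglial UMIs in nTg (n = 3) and 2.69% in SOD1G93A (2.35 to 3.08 by library). The share was 1.59 to 1.96% in Clec7a-KO and 1.98 to 3.15% in SOD1G93A/Clec7a-KO, ranges that nearly touched.

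**Figure D2:**
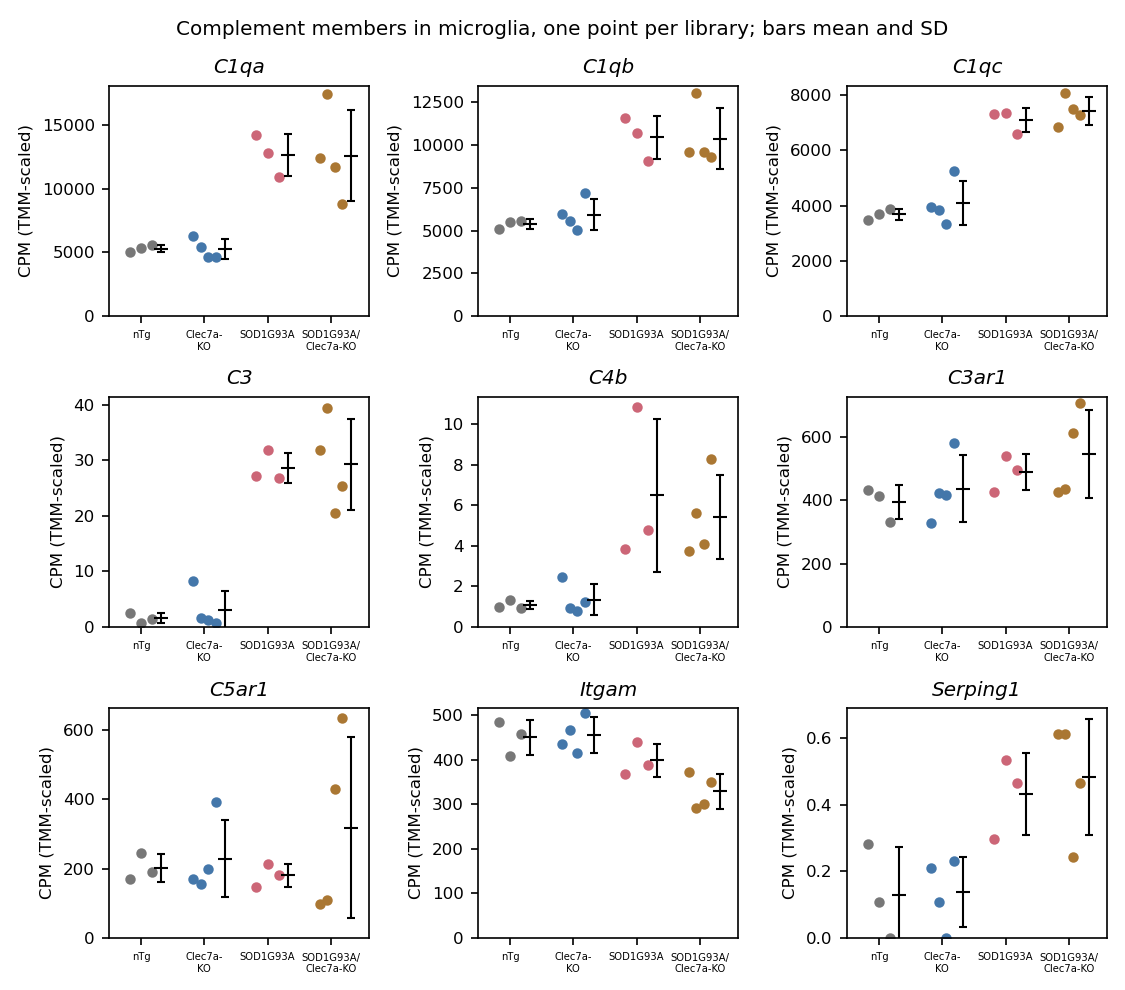
TMM-scaled CPM of the 9 genes in microglia, each point 1 library, in the 4 groups; bars are the mean and SD over libraries, cut at 0. C1qa, C1qb, C1qc, C3 and C4b are higher in all transgenic libraries than in nTg, while C5ar1 is spread most within the SOD1G93A/Clec7a-KO group (98.6 to 635).

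The sizes of these changes depended on scaling, since TMM factors in microglia were 1.20 to 1.24 in nTg and 0.85 to 0.93 in SOD1G93A. With CPM of total UMIs, without TMM factors, the median of all genes shifted by -0.448 in SOD1G93A against nTg and by -0.513 in the Clec7a-deficient pair. The split of called genes then went from 3300 higher and 2203 lower to 1530 higher and 5840 lower in the first comparison, and from 4274 and 3497 to 1907 and 7809 in the second. C1qa was still called higher in both (log2 fold changes 0.81 and 0.74, each above the median gene). On that scale SOD1G93A still lay above nTg for each chain, but SOD1G93A/Clec7a-KO replicate 4 fell below the highest Clec7a-KO library for C1qa (6876 against 7636 CPM), as did replicates 3 and 4 for C1qb (7387 and 7236 against 7439). C1qb in the Clec7a-deficient pair fell to 0.30 and was no longer called (edgeR adjusted p = 0.126, the highest of its 26 alternatives, which went down to 3.1e-06). Among only the 10 libraries with Ddx3y above Xist, which leave 1 nTg library, the log2 fold changes in SOD1G93A against nTg were as large but not called, at 1.29 for C1qa (adjusted p = 0.0698), 0.97 for C1qb (0.131) and 0.98 for C1qc (0.10). With sex as a covariate all 3 were called. The scaling by total UMIs and the subset with Ddx3y above Xist were chosen after seeing the data.

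The microglial class was made of different clusters in the groups. In the clustering without complement genes, a cluster led by Crybb1, P2ry12 and Tmem119 held 5.2% to 97.9% of microglia in nTg, 6.03% to 95.6% in Clec7a-KO, 2.98% to 13.2% in SOD1G93A and 1.81% to 10.6% in SOD1G93A/Clec7a-KO, and a like cluster led by Xist and Crybb1 up to 90.9%, 91.9%, 0% and 5.31%. These groups, in the same order, had 2 of 3, 1 of 4, 0 of 3 and 1 of 4 libraries with Xist above Ddx3y. A cluster led by Hcar2 and Apoe held 0.83% to 0.95%, 0.78% to 3.31%, 20.3% to 49.1% and 26.3% to 65.9%. The rise of C1q is one of the whole class, and the part of this shift in it was not tested.

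Other RNA moved with the same groups. A list of 22 genes known to be induced by dissociation summed to 44598 to 55882 CPM in nTg and 46941 to 60406 in Clec7a-KO microglia, against 20880 to 22397 in SOD1G93A and 18779 to 24654 in SOD1G93A/Clec7a-KO. A list of 8 markers of border-associated macrophages summed to 2.42 to 3.82 CPM in nTg microglia and 48.1 to 92.5 in SOD1G93A microglia. Their part in the C1q difference was not tested. Within the P2ry12-led cluster, present in all 14 libraries, C1qa was at 6607 ± 208 CPM of total UMIs in nTg (n = 3), 6201 ± 1237 in Clec7a-KO (n = 4), 10749 ± 3695 in SOD1G93A (n = 3) and 10191 ± 3612 in SOD1G93A/Clec7a-KO (n = 4). C1qc in that cluster was at 4466 ± 11.8, 4789 ± 508, 6315 ± 1322 and 6332 ± 684. For C1qa the highest nTg library (6832) lay below the lowest SOD1G93A library (8363), and no test was run within the cluster. The nTg libraries entered this cluster with 5.2% to 97.9% of their microglia, so it did not hold a like part of each library.

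The 3 chains did not rise in equal measure. Of the UMIs of the C1q genes in microglia, C1qa made up 36.9%, 36.6% and 37.0% in nTg, 38.9%, 36.5%, 35.8% and 27.2% in Clec7a-KO, 42.9%, 41.5% and 40.9% in SOD1G93A, and 43.0%, 45.1%, 40.6% and 34.7% in SOD1G93A/Clec7a-KO. All SOD1G93A libraries lay above all nTg libraries, while the 4th replicate of each Clec7a-deficient group stood low. The C1qb share was 37.5% ± 0.31 in nTg and 34.6% ± 0.37 in SOD1G93A, and the C1qc share 25.7% ± 0.13 and 23.6% ± 1.36. These shares count captured 3′ ends, so they compare groups and give no ratio of molecules between chains.

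**Figure D3:**
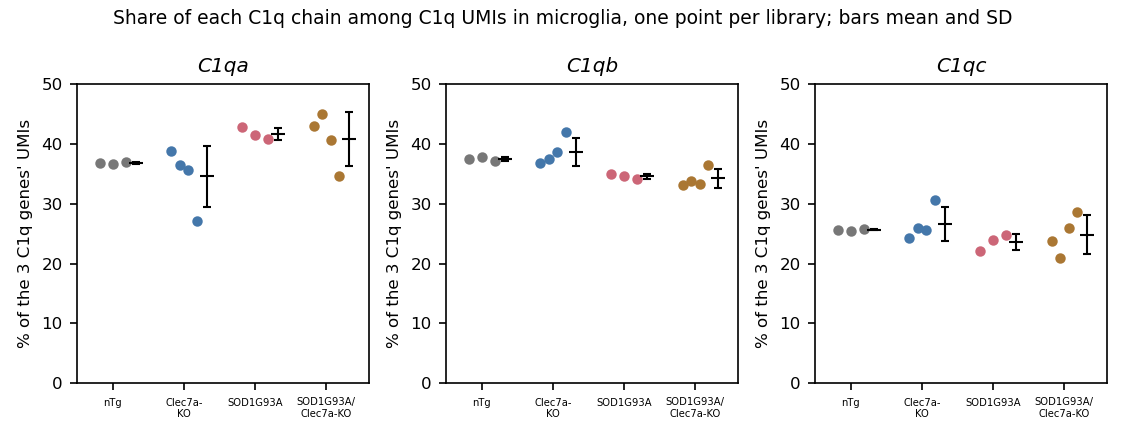
Share of each C1q gene in the UMIs of the 3 C1q genes in microglia (y axis, percent), each point 1 library in the 4 groups, with bars for mean and SD. The C1qa share is 36.8% ± 0.18 in nTg and 41.8% ± 1.00 in SOD1G93A, with the Clec7a-KO library at 27.2% lowest.

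Counts of C3 and C4b also rose in the microglial class, at levels far below those of their main classes. Microglial C3 stood at 2.57, 0.71 and 1.48 CPM in nTg, 8.24, 1.68, 1.22 and 0.78 in Clec7a-KO, 27.2, 31.9 and 26.9 in SOD1G93A and 31.9, 39.4, 20.5 and 25.4 in SOD1G93A/Clec7a-KO. Every transgenic library was above every other library, and Clec7a-KO replicate 1 stood apart from its group. The log2 fold change of C3 was 4.11 ± 0.68 in SOD1G93A against nTg (edgeR adjusted p = 0.000411) and 3.19 ± 0.55 in the Clec7a-deficient pair (adjusted p = 0.000318). C4b reached 3.84, 10.8 and 4.79 CPM in SOD1G93A from 1.00, 1.31 and 0.94 in nTg, a log2 fold change of 2.58 ± 0.49 (adjusted p = 0.00112), and rose by 1.95 ± 0.41 in the Clec7a-deficient pair (adjusted p = 0.00154). Among the 10 libraries with Ddx3y above Xist the log2 fold change of C4b in SOD1G93A against nTg was 2.35 with an adjusted p of 0.0739, the highest of its 26 alternatives (lowest 2e-06). In endothelial cells, taken as the comparison class for free RNA, C4b on the scale of total UMIs was at 8.91, 11.2 and 10.3 CPM in SOD1G93A, above the 3.57, 9.23 and 4.24 of microglia in the same libraries. In nTg it was at 0.78 to 2.35 in endothelial cells and 1.13 to 1.57 in microglia. In the Clec7a-deficient groups it was at 0.62 to 5.08 without and 2.58 to 15.3 with the transgene in endothelial cells, and at 0.93 to 2.97 and 3.12 to 6.45 in microglia. The ranges of both classes overlapped in all groups, and the part of free RNA in the microglial rise was not tested.

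Microglia with at least 1 C3 UMI made up 1.61% of cells in nTg and 27.2% ± 7.56 in SOD1G93A, where median depths were 10246 and 19137 UMIs. With each cell thinned to 1000 UMIs, these shares were 0.09% and 2.32%. In endothelial cells (median depths 8305 and 6818 UMIs), the thinned shares were 0.08% and 1.40%. As CPM of total UMIs, C3 was at 25.3, 27.1 and 23.8 in SOD1G93A microglia. In the same libraries it was at 13.4, 4.71 and 5.63 in endothelial cells and at 12.2, 23.4 and 38.4 in ependymal cells. The part of free RNA in the microglial C3 counts was not tested.

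Receptor transcripts did not follow C1q. C3ar1 was at 434, 415 and 333 CPM in nTg, 328, 423, 418 and 581 in Clec7a-KO, 428, 541 and 497 in SOD1G93A and 426, 436, 614 and 708 in SOD1G93A/Clec7a-KO. The groups overlapped, and the 3 highest values were those of the libraries numbered 13, 15 and 16. Its log2 fold change was 0.31 ± 0.23 in SOD1G93A against nTg (edgeR adjusted p = 0.329) and 0.32 ± 0.20 in the Clec7a-deficient pair (adjusted p = 0.208), and with CPM of total UMIs it moved with the median of all genes, to -0.15 and -0.20. With library number as a covariate C3ar1 was called in both (0.59, adjusted p = 0.00881, and 0.36, adjusted p = 0.0249), each the lowest of 26 alternatives that ranged up to 0.671 and 0.644.

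C5ar1 stood at 170, 246 and 190 CPM in nTg, 169, 156, 198 and 393 in Clec7a-KO, 148, 213 and 180 in SOD1G93A, and 98.6, 110, 429 and 635 in SOD1G93A/Clec7a-KO. Again the libraries numbered 13, 15 and 16 were the 3 highest, and within SOD1G93A/Clec7a-KO the other 2 libraries were the 2 lowest of all. Neither comparison passed the test (log2 fold change -0.16 ± 0.57, edgeR adjusted p = 0.85, and 0.47 ± 0.49, adjusted p = 0.444). With library number as a covariate C5ar1 was called higher in SOD1G93A against nTg (0.70, adjusted p = 0.0486, the lowest of 26 alternatives that ranged up to 0.992), a sign opposite to that without the covariate. Over only the 11 libraries numbered below 13, a setting chosen after seeing the data, C5ar1 in the Clec7a-deficient pair was lower with the transgene (-0.73, adjusted p = 0.0103, within a range of 0.0103 to 0.925 over 26 alternatives), so its sign turned with those 3 libraries.

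Within microglia, C5ar1 was compared between clusters library by library, in the clustering without complement genes. In a cluster led by Tnfsf9 and Il1b, which reached 20 cells only in the 4 SOD1G93A/Clec7a-KO libraries, it spread from 101 to 583 CPM of total UMIs, much as in the P2ry12-led cluster of the same group (129 to 515). In a cluster led by Gpnmb and Spp1 it was at 45.7 to 69.1 in the SOD1G93A libraries, below the 167 to 247 of the P2ry12-led cluster there, and at 39.2 to 192 in SOD1G93A/Clec7a-KO.

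Itgam was at 486, 409 and 458 CPM in nTg, 435, 468, 414 and 506 in Clec7a-KO, 368, 440 and 389 in SOD1G93A and 374, 292, 301 and 351 in SOD1G93A/Clec7a-KO. All SOD1G93A/Clec7a-KO libraries lay below all Clec7a-KO libraries, while SOD1G93A and nTg overlapped. Itgam fell by 0.47 ± 0.13 on the log2 scale in the Clec7a-deficient pair (456 ± 39.9 to 329 ± 39.4 CPM, edgeR adjusted p = 0.00949). In SOD1G93A against nTg the change was -0.18 ± 0.15 (adjusted p = 0.391), with a range of 0.005 to 0.99 over 26 alternatives. The lowest came with CPM of total UMIs (-0.63), a scale on which the median of all genes was itself at -0.448. The fall in the Clec7a-deficient pair missed the threshold among libraries with Ddx3y above Xist (-0.50, adjusted p = 0.0564) and among those numbered below 13 (-0.39, adjusted p = 0.0514), with a range down to 4.1e-05. By library, Itgam was at 420 to 580 CPM of total UMIs in the P2ry12-led cluster (14 libraries), 239 to 399 in a cluster led by Hcar2 and Apoe (11 libraries) and 185 to 293 in the Gpnmb-led cluster (7 libraries).

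In all, 5 of the 9 genes were called higher and 0 lower in SOD1G93A against nTg microglia, where 33.2% of 16570 tested genes were called (19.9% higher), and the median log2 fold change was 0.957 over the 9 genes and 0.006 over all genes. Fewer of the 9 were called with only the libraries with Ddx3y above Xist, which leave 1 nTg library. The share of all genes called in that setting is not given. In SOD1G93A/Clec7a-KO against Clec7a-KO, 6 were called higher and 1 lower, beside 46.9% of all genes (25.8% higher and 21.1% lower), with medians of 0.861 and 0.006. The 6th was Serping1, whose microglial level was at most 0.61 CPM in any library. Without the transgene Serping1 was at most 0.35 CPM of total UMIs, so it passed the filter on low counts only through transgenic libraries. Serping1 thus adds no support to the count. Its call (1.76 ± 0.61, edgeR adjusted p = 0.0282) was lost without Clec7a-KO replicate 2 (0.0778) or 3 (0.0614) and without SOD1G93A/Clec7a-KO replicate 1 (0.06) or 2 (0.0707), over a range of 0.0195 to 0.0931.

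In microglia, loss of Clec7a went with no called change in any of the 9 genes. Between SOD1G93A/Clec7a-KO and SOD1G93A microglia, 0.0181% of all genes were called and 0 of 9 complement genes (edgeR, and 0 by DESeq2). At an unadjusted p under 0.05 there were 0 of 9 too, beside 11.4% of all genes, so this 0 is near the background. C1qa differed by -0.003 ± 0.22 log2 units, C1qb by -0.009 ± 0.19, C1qc by 0.07 ± 0.18 and C3 by 0.03 ± 0.53 between the transgenic groups. Larger but uncertain differences were those of C5ar1 (0.82 ± 0.54, edgeR adjusted p = 0.521) and Itgam (-0.28 ± 0.14, adjusted p = 0.445). Between Clec7a-KO and nTg 0.0302% of genes and 0 of 9 complement genes were called (edgeR, and 0 by DESeq2). Unadjusted there were 0 of 9, beside 2.65% of all genes, again near the background. The difference between the transgene's effects with and without Clec7a was called for 0% of genes, and was 0.004 ± 0.31 for C1qa, -0.91 ± 0.82 for C3 and -0.29 ± 0.20 for Itgam.

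Among classes with a level in at least 3 libraries, astrocytes had the highest mean C3 and C4b over all libraries. For C4b this order did not hold in every library, as macrophages or precursors exceeded astrocytes in some. Both genes rose with the transgene in astrocytes. C3, on chromosome 17 (chr17:57203970-57228136, minus strand), is shown with its promoter because C/EBP factors are known regulators of this gene. The RefSeq window (GRCm38.p6, chr17:57228137-57228386, minus strand, 5′ to 3′) carries in capitals a match to TTGCNNAA, a C/EBP motif, 37 bases before the start.
C3: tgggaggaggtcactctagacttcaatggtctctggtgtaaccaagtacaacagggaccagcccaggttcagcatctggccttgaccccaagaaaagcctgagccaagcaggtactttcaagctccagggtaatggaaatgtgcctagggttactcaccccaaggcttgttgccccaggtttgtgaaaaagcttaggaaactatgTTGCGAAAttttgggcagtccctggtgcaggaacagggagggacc
TTGCNNAA occurred on either strand in 9.57% of the 32841 windows and in 1 of the 6 complement genes with a window. The STAT motif TTCNNNGAA, in 7.02% of windows, was in 0 of the 6. Neither count bears on binding.

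Astrocytic C3 was at 123, 35 and 93.8 CPM in nTg, 123, 57.7, 62.2 and 47.2 in Clec7a-KO, 1057, 931 and 818 in SOD1G93A and 1595, 1571, 455 and 433 in SOD1G93A/Clec7a-KO. The lowest transgenic library was above the highest other library, and the SOD1G93A/Clec7a-KO libraries fell into a high and a low pair. C3 was 11.1-fold higher in SOD1G93A than in nTg astrocytes (936 ± 119 against 83.9 ± 44.8 CPM, log2 fold change 3.47 ± 0.51, edgeR adjusted p = 6.9e-05). In the Clec7a-deficient pair it rose from 72.5 ± 34.2 to 1013 ± 658 CPM (3.80 ± 0.46, adjusted p = 7.1e-06).

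C4b, on the same chromosome (chr17:34728380-34743882, minus strand), stood at 108, 38.7 and 106 CPM in nTg astrocytes, 111, 112, 114 and 88.9 in Clec7a-KO, 322, 553 and 402 in SOD1G93A and 419, 405, 627 and 392 in SOD1G93A/Clec7a-KO. The transgenic libraries lay above all others. The rise was 5.03-fold in SOD1G93A against nTg (log2 fold change 2.33 ± 0.31, edgeR adjusted p = 2.2e-05) and 2.11 ± 0.27 log2 units in the Clec7a-deficient pair (adjusted p = 1.5e-05). Counts of C4b can share reads with its neighbour C4a, whose last 300 transcript bases matched those of C4b at 294 of 299 aligned positions, and C4a was at most 3.79 CPM on average in any class.

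Serping1 had the largest log2 fold change of the 9 genes in the edgeR fits of astrocytes. It was at 4.73, 1.26 and 1.68 CPM in nTg, 3.26, 13.8, 3.63 and 1.81 in Clec7a-KO, 56.7, 144 and 89.4 in SOD1G93A and 111, 194, 92.1 and 89.9 in SOD1G93A/Clec7a-KO. No transgenic library overlapped the others. The rise was 37.8-fold in SOD1G93A against nTg (log2 fold change 5.24 ± 0.51, edgeR adjusted p = 7.5e-07) and 4.56 ± 0.44 log2 units in the Clec7a-deficient pair (adjusted p = 6.1e-07). C3, C4b and Serping1 passed the test in astrocytes in both comparisons under all 26 alternatives.

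In SOD1G93A against nTg astrocytes 7 of the 9 genes were called higher, beside 17.3% of 12275 genes, with a median log2 fold change of 2.63 against 0.005 over all genes. The count was 3 with sex as a covariate and 4 without nTg replicate 3, and it was lower too among libraries with Ddx3y above Xist. Shares of all genes called in these settings are not given. All 9 were higher in the Clec7a-deficient pair, beside 16.9% of all genes. C5ar1 was among them and passed the filter on low counts only through SOD1G93A/Clec7a-KO, so it adds no support. The other members called in SOD1G93A against nTg were genes highest in microglia (the C1q genes and C3ar1), and C1qa, for example, went from 37.4 ± 21.5 to 305 ± 146 CPM (log2 fold change 3.02, edgeR adjusted p = 0.01). The 12 microglial markers summed to 166 to 246 CPM in nTg astrocytes, 182 to 440 in Clec7a-KO, 379 to 608 in SOD1G93A and 358 to 2568 in SOD1G93A/Clec7a-KO, and the part of microglial RNA in these members was not tested.

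Astrocytes with a C3 UMI, after thinning to 1000 UMIs, made up 3.98% in nTg, 3.67% in Clec7a-KO, 31.0% ± 1.64 in SOD1G93A and 25.3% ± 13.9 in SOD1G93A/Clec7a-KO. Unthinned, the shares were 6.19%, 6.22%, 41.7% ± 6.47 and 35.2% ± 16. Median depths were 5650, 5334, 4740 and 3350 UMIs, and endothelial cells, at 0.08% to 1.40% thinned, were below every astrocyte group.

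The astrocytes of transgenic cords were mostly of another cluster than those of nTg cords. In the clustering without complement genes, a cluster of 1517 cells led by Gfap, A2m, S100a6 and Serpina3n held 8.94% ± 2.71 of astrocytes in nTg, 9.97% ± 2.20 in Clec7a-KO, 64.6% ± 13.3 in SOD1G93A and 70.2% ± 11.5 in SOD1G93A/Clec7a-KO. Inside this cluster C3 was at 1037, 845 and 1250 CPM of total UMIs in nTg, 928, 967, 662 and 628 in Clec7a-KO, 1874, 1181 and 975 in SOD1G93A and 2494, 1577, 545 and 545 in SOD1G93A/Clec7a-KO, groups that overlapped. C4b in it was no higher with the transgene, at 574 ± 86.4 CPM in nTg and 441 ± 82.2 in SOD1G93A. Serping1 did differ inside it: 28.7, 17.4 and 17.6 CPM in nTg (from 11, 2 and 5 UMIs) against 98.5, 175 and 101 in SOD1G93A, with no overlap. Clec7a-KO replicate 2, at 190 CPM from 22 UMIs, fell among the transgenic libraries. Outside it C3 was lower. In a cluster led by Cldn10 and Slc7a10 (2810 cells) it was at 86.3, 4.53 and 114 CPM in nTg, from 24, 564 and 46 cells, and at 34.2, 46.6 and 56.0 in SOD1G93A. In the Clec7a-deficient pair it was at 12.1, 0.52 and 0.96 without and 69.0, 83.4 and 72.7 with the transgene there, with no overlap. C4b in that cluster was at 414, 23.6 and 380 CPM in nTg and 191, 523 and 448 in SOD1G93A, and at 46.7, 82.5 and 40.5 in Clec7a-KO and 238, 340 and 538 in SOD1G93A/Clec7a-KO, the latter pair without overlap. Most astrocytes of nTg replicates 1 and 3 (516 and 547 cells) lay in another cluster, led by Slc7a10 and Gm3764, with C3 at 10.5 and 5.44 CPM and C4b at 44.1 and 50.04. Xist exceeded Ddx3y in these libraries and in Clec7a-KO replicate 3, which had 370 cells in that cluster. No test was run within clusters.

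**Figure D4:**
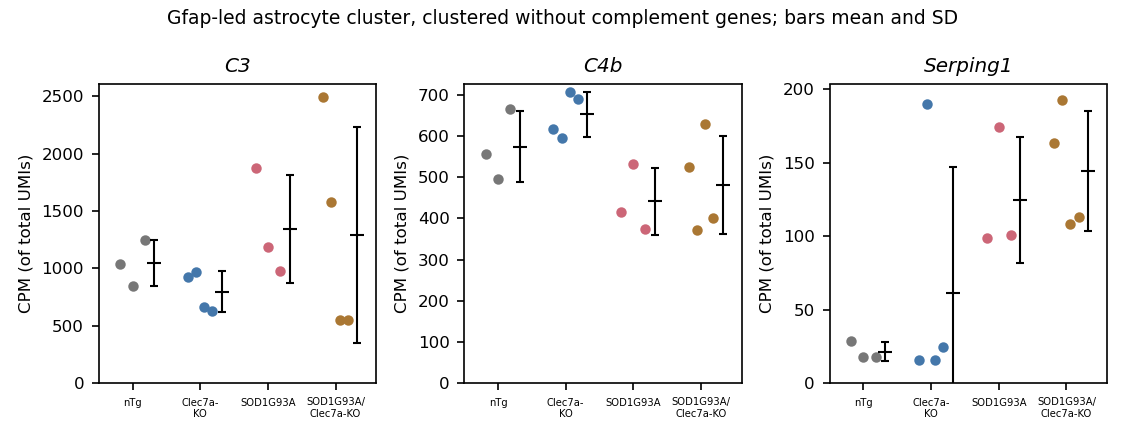
CPM of total UMIs of C3, C4b and Serping1 inside the Gfap-led astrocyte cluster found without complement genes, each point 1 library in the 4 groups, with bars for mean and SD. C3 and C4b overlap between nTg and SOD1G93A or lie lower with the transgene, while Serping1 is at 21.2 ± 6.45 in nTg and 125 ± 43.1 in SOD1G93A.

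Oligodendrocyte precursors gained C4b. It was at 16.2, 4.22 and 12.6 CPM in nTg, 16.7, 12.7, 17.7 and 3.19 in Clec7a-KO, 204, 493 and 430 in SOD1G93A and 262, 363, 214 and 224 in SOD1G93A/Clec7a-KO. The lowest transgenic library was far above the highest of the others. The rise was 34.1-fold in SOD1G93A against nTg (log2 fold change 5.03 ± 0.45, edgeR adjusted p = 1.3e-05) and 21.2-fold in the Clec7a-deficient pair (4.36 ± 0.39, adjusted p = 1.1e-05), and it was called under all 26 alternatives. The share of C4b UMIs that lay in this class went from 6.66% ± 2.45 of all C4b UMIs in nTg to 43.9% ± 5.57 in SOD1G93A, and that in astrocytes from 62.2% ± 12.3 to 23.4% ± 7.47. Such shares also follow the cells recovered, and astrocytes numbered 540 to 588 per nTg library and 201 to 323 per SOD1G93A library.

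Precursor cells with a C4b UMI, thinned to 1000 UMIs, went from 1.07% ± 0.23 in nTg to 27.2% ± 8.03 in SOD1G93A and from 1.61% in Clec7a-KO to 18.1% ± 5.35 in SOD1G93A/Clec7a-KO. Unthinned shares were 7.41% ± 3.38, 68.3% ± 18.9, 9.24% and 53.5% ± 9.47. Median depths of precursors were 10903 UMIs in nTg and 10236 in SOD1G93A, and in endothelial cells the thinned C4b share was 0.10% to 1.06%. Astrocyte markers, as a list of 9, summed to 1604 to 2132 CPM in nTg precursors and 1492 to 1852 in SOD1G93A, and the part of astrocyte RNA in the C4b rise was not tested. Of 7 members tested, 4 were called higher in each comparison (C4b and the C1q genes), beside 1.3% of 13254 genes in SOD1G93A against nTg and 3.03% in the Clec7a-deficient pair, with medians of 2.92 and 2.39. Microglial markers summed to 95.6 to 146 CPM in nTg precursors and 200 to 557 in SOD1G93A, and their part in the C1q calls was not tested. C5ar1 and Serping1 did not pass the filter on low counts in this class. This class and mural cells were chosen for testing after their levels were seen.

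**Figure D5:**
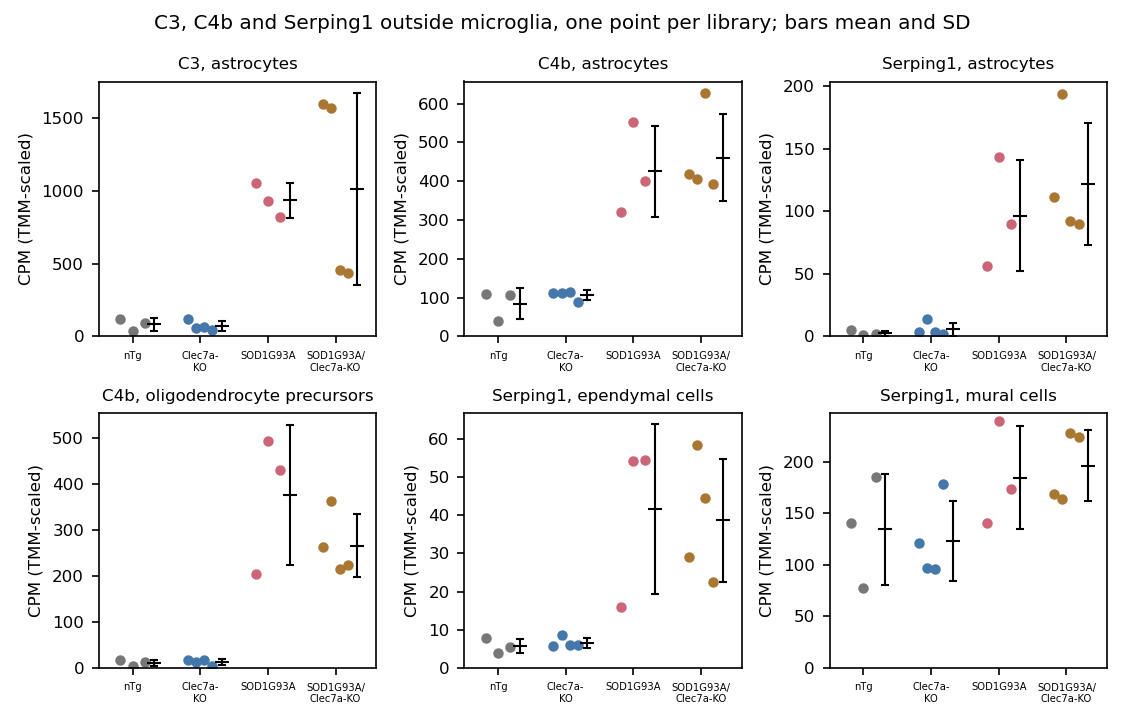
TMM-scaled CPM by library for C3, C4b and Serping1 in astrocytes, C4b in oligodendrocyte precursors and Serping1 in ependymal and mural cells, in the 4 groups, with bars for mean and SD. Transgenic libraries lie above all others in each panel except mural cells, where groups overlap.

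Ependymal cells, which line the central canal, held 27.72% of all Serping1 UMIs. Serping1 there was at 7.76, 4.00 and 5.51 CPM in nTg, 5.64, 8.49, 5.92 and 5.90 in Clec7a-KO, 16, 54.2 and 54.5 in SOD1G93A and 29.2, 58.4, 44.5 and 22.5 in SOD1G93A/Clec7a-KO. SOD1G93A replicate 1 was the lowest transgenic library, still above all without the transgene. It rested on 12 UMIs from 108 cells, and SOD1G93A/Clec7a-KO replicate 4 on 6 UMIs from 28 cells. The log2 fold change was 2.95 ± 0.34 in SOD1G93A against nTg (edgeR adjusted p = 0.000142) and 2.62 ± 0.32 in the Clec7a-deficient pair (adjusted p = 0.00018). C3 rose by 2.57 ± 0.43 (adjusted p = 0.00402) and 3.35 ± 0.41 (adjusted p = 0.000211), and C4b by 3.36 ± 0.50 (adjusted p = 0.00158) and 3.10 ± 0.46 (adjusted p = 0.00127), from 4.94 ± 1.60 and 2.63 ± 0.74 CPM in nTg. Among libraries with Ddx3y above Xist, which leave 1 nTg library, the log2 fold changes of C3, C4b and Serping1 in SOD1G93A against nTg were of similar size (2.36, 3.73 and 3.50) but not called (adjusted p 0.73, 0.374 and 0.0634, the highest over 26 alternatives), and the calls of the Clec7a-deficient pair held. With sex as a covariate C3 (2.42, adjusted p = 0.107) and C4b (3.25, adjusted p = 0.0724) were not called either, while Serping1 was.

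In ependymal cells 8 of the 9 genes were called higher in SOD1G93A against nTg, beside 0.907% of 15318 genes, and 5 in the Clec7a-deficient pair (C1qb, C1qc, C3, C4b and Serping1), beside 1.21%. These counts moved. The 8 became 1 with sex as a covariate, 3 without nTg replicate 1 or 3 and 4 without nTg replicate 2 or SOD1G93A replicate 2. The 5 became 3 without Clec7a-KO replicate 2, 3 or 4 or SOD1G93A/Clec7a-KO replicate 1 or 2, and 8 without Clec7a-KO replicate 1. Shares of all genes called in these settings are not given, so it cannot be told whether the members moved more than other genes. Microglial markers summed to 247 to 280 CPM in nTg ependymal cells and 422 to 908 in SOD1G93A. Astrocyte markers in this class were at 1397 to 1499 CPM in nTg and 1270 to 1976 in SOD1G93A. The part of either in the calls was not tested.

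In endothelial cells the members called higher were myeloid genes, all highest in microglia but Itgam, which was higher in neutrophils. C1qa went from 22.2 ± 7.94 CPM in nTg to 362 ± 151 in SOD1G93A (log2 fold change 4.01, edgeR adjusted p = 0.00447), and C1qb, C1qc, C3ar1 and Itgam were also called. That made 5 of 9, beside 1.1% of 13318 genes, and in the Clec7a-deficient pair 4 of 9 (the C1q genes and C3ar1), beside 0.803%. The first count was 3 without nTg replicate 2 or 3 or SOD1G93A replicate 1 or 2, and it was lower too among libraries with Ddx3y above Xist. The second was 0 without Clec7a-KO replicate 2 or SOD1G93A/Clec7a-KO replicate 2, and 2 without Clec7a-KO replicate 3. Shares of all genes called in these settings are not given. Between Clec7a-KO and nTg endothelial cells 0 of 9 were called, while 5 had an unadjusted p under 0.05 (edgeR), beside 1.95% of all genes. The median log2 fold change was 1.21 over the 9 genes and 0.018 over all genes. Microglial markers, with 12 of 12 over 0 in every library, summed to 78.8 to 121 CPM in nTg, 116 to 341 in Clec7a-KO, 280 to 632 in SOD1G93A and 296 to 715 in SOD1G93A/Clec7a-KO endothelial cells, and their part was not tested.

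Mural cells, the pericytes and smooth muscle cells, had the highest Serping1 level of the tested classes and showed no called change of it. Serping1 was at 141, 77.9 and 185 CPM in nTg, 121, 96.8, 95.9 and 178 in Clec7a-KO, 140, 239 and 174 in SOD1G93A and 169, 163, 228 and 224 in SOD1G93A/Clec7a-KO, and all groups overlapped. Its log2 fold change was 0.50 ± 0.30 in SOD1G93A against nTg (edgeR adjusted p = 0.999) and 0.71 ± 0.27 in the Clec7a-deficient pair (adjusted p = 0.496). Of the 4 members tested in this class, 0 were called in the first comparison (edgeR; 3 at an unadjusted p under 0.05), beside 0.107% of 7482 genes called and 4.91% at that unadjusted p. C1qa was called in the second (3.31 ± 0.69, adjusted p = 0.0283, and not called by DESeq2), beside 0.428%. Microglial markers summed to 125 to 716 CPM in Clec7a-KO and 436 to 1998 in SOD1G93A/Clec7a-KO mural cells, and their part in it was not tested.

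In astrocytes, Clec7a loss gave no called member either. The same held in endothelial, ependymal, precursor and mural cells, in both comparisons (edgeR), beside at most 0.0392% of genes in any class. For Clec7a-KO against nTg astrocytes 0 of 9 had an unadjusted p under 0.05, beside 2.04% of genes. Between SOD1G93A/Clec7a-KO and SOD1G93A astrocytes, 0 of 9 were called (edgeR, 6 at an unadjusted p under 0.05, 0 by DESeq2), beside 0.0163% of genes called and 6.9% at an unadjusted p under 0.05. The count was 6 with no filter on low counts, beside 0.903% of 26475 genes, and 1 without Clec7a-KO replicate 2 or with library number as covariate. For the latter settings the share of all genes called is not given. C3 differed by 0.15 ± 0.44 log2 units, C4b by 0.12 ± 0.28 and Serping1 by 0.40 ± 0.37 in astrocytes, and C4b in oligodendrocyte precursors by -0.50 ± 0.34 (edgeR adjusted p = 0.639). Of the members in astrocytes, C5ar1 had the lowest adjusted p (3.26 ± 0.59, edgeR adjusted p = 0.108). It was at 10.5, 13.9, 16.9 and 24.5 CPM in SOD1G93A/Clec7a-KO (18, 12, 9 and 3 UMIs) against 1.23, 0.92 and 1.75 in SOD1G93A (1, 1 and 4 UMIs), with no overlap. In all other groups astrocytic C5ar1 was at most 1.92 CPM of total UMIs. It thus passed the filter on low counts only through SOD1G93A/Clec7a-KO, and its values are given as a description. Microglial markers in the same astrocytes summed to 358 to 2568 CPM in SOD1G93A/Clec7a-KO and 379 to 608 in SOD1G93A, ranges that overlapped, and their part was not tested.

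Border-associated macrophages had fewer than 20 cells in 1 library and were not tested. Their C4b was at 74.7 ± 18.7 CPM of total UMIs in nTg (n = 2), 116 ± 31.7 in Clec7a-KO (n = 4), 217 ± 88.3 in SOD1G93A (n = 3) and 296 ± 80.8 in SOD1G93A/Clec7a-KO (n = 4). Their C1qa was at 4824 ± 564, 3522 ± 723, 6800 ± 848 and 6530 ± 2922. C5ar1 in them was spread within groups, from 421 ± 125 in SOD1G93A to 845 ± 688 in SOD1G93A/Clec7a-KO. Their C3 was at 0 in nTg replicates 1 and 2 and at 123, 73.3, 20.0 and 49.6 in Clec7a-KO (46, 21, 4 and 8 UMIs). It was at 8.55 to 27.6 in SOD1G93A and 0 to 12.9 in SOD1G93A/Clec7a-KO.

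Other genes of the complement system, a list of 55, were called in both directions in microglia. Of 28 that passed the filter, 10 were called higher and 3 lower in SOD1G93A against nTg (median log2 fold change 0.71), beside 19.9% and 13.3% of all genes. In the Clec7a-deficient pair 13 were called higher and 5 lower (median 0.48), beside 25.8% and 21.1%. The counts of lower genes were thus near the background. Colec12, a membrane collectin that acts as a scavenger receptor, rose from 0.89 to 45.7 ± 7.99 CPM (5.71 ± 0.37, edgeR adjusted p = 2.5e-07). Itgax, the alpha chain of complement receptor 4, rose from 11 to 220 CPM (4.33 ± 0.47, adjusted p = 1.2e-05), and Itgb2, the beta chain that Itgax and Itgam share, from 196 to 353 CPM (0.85 ± 0.28, adjusted p = 0.0325). Masp1, a protease of the lectin pathway, went from 1.92 to 9.14 CPM, and Calr, which binds C1q, from 696 to 1538 CPM (1.14 ± 0.34). The Itgb2 call was lost without any 1 nTg library or SOD1G93A replicate 2 or 3 (adjusted p 0.0522 to 0.102, with 8e-06 to 0.244 over 26 alternatives), and that of Calr without nTg replicate 2 (0.0548) or 3 (0.0563), with a range of 8.4e-05 to 0.173.

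Among the 3 that fell were a receptor and a gene of a regulator family. Csmd3, of a family with complement-control domains, went from 129 to 26.0 CPM (-2.31 ± 0.42, edgeR adjusted p = 0.000771), and C5ar2, the second C5a receptor, from 36.5 to 13.1 (-1.48 ± 0.35, adjusted p = 0.00514). Csmd3 and C5ar2 also fell in the Clec7a-deficient pair (-2.82 ± 0.37 and -1.27 ± 0.31). The 13 called in SOD1G93A against nTg became 8 without nTg replicate 1 and 7 without nTg replicate 2, nTg replicate 3 or SOD1G93A replicate 2. They were fewer too among libraries with Ddx3y above Xist, and shares of all genes called in these settings are not given.

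In astrocytes 9 of 22 other complement genes were called higher and 4 lower in SOD1G93A against nTg (median 0.26), beside 17.3% and 15.2% of all genes, so the lower count was near the background. Clu, clusterin, an inhibitor of the terminal complex, rose from 2426 ± 228 to 6712 ± 762 CPM (1.47 ± 0.26, edgeR adjusted p = 0.000384), and Cd55, which speeds the decay of C3 convertases, from 0.30 to 8.91 CPM (4.8 ± 0.64). Cd59b, an inhibitor of membrane attack (2.89 to 11.9 CPM), and the C1 protease C1ra (0.83 to 7.01 CPM) also rose. The related Cd59a, at 15.6 and 36.7 CPM, was called (adjusted p = 0.045) but not in 15 of 26 alternatives. Masp1 (15.4 to 4.55 CPM) and Colec12 (22.1 to 12 CPM) fell in astrocytes, opposite to their change in microglia (difference between classes not tested). The call of Cd59a was lost without any 1 of nTg replicates 1 and 3, SOD1G93A replicates 1 to 3 and SOD1G93A/Clec7a-KO replicates 3 and 4 (adjusted p 0.0513 to 0.179), and that of Colec12 without nTg replicate 3 (0.0934) or SOD1G93A replicate 3 (0.198), over ranges of 2.4e-05 to 0.476 and 0.00602 to 0.198. In oligodendrocyte precursors Sez6l2 fell from 35.1 to 12.6 CPM (-1.48 ± 0.25, adjusted p = 0.00371).

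The genes whose log2 CPM followed a member most closely over the 14 libraries, in whichever of microglia, astrocytes, endothelial and ependymal cells had its highest level, were in part known myeloid or astrocyte genes. For C1qa in microglia they were Pycard (r = 0.994), Trem2 (0.991) and Lamtor5 (0.991), and for C1qb Trappc6a (0.985), Os9 and Acbd6. Those nearest to C1qc were Timp2 (0.990), Tmem14c and Glrx5, to Itgam Adam10 (0.957), Nek7 and Msl2, to C3ar1 Chic2 (0.959) and Dnajb6, and to C5ar1 Zeb2os (0.976), Hnrnpk and Rsl24d1. In astrocytes C3 was closest to Cd44 (0.991), Flnc and Msn, C4b to Plat (0.977), Mdfic and Slc39a14, and Serping1 to Igsf10 (0.980), Plat and Prss23. These are the highest over 9500 genes in microglia or 11378 in astrocytes, in libraries that share groups and depth, and are given as a description.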

How the data were processed

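Whole spinal cords were dissociated with enzymes, freed of myelin and sequenced as droplet 3′ libraries, per the labels' protocols. The deposited values are the authors' raw UMI counts per gene and barcode; the submitters' processing notes name Cell Ranger, Seurat, DESeq2 and mm10, and a rule for calling cells or use of strand is not given in the sources used here. Barcodes under 500 genes or 1000 UMIs, or over 15% mitochondrial UMIs, were dropped, which removed 7127 and 4963, and Scrublet's highest scores, at 0.8% per 1000 barcodes, removed 7577 as doublets (scanpy 1.11.5). Clustering used 2000 variable genes, 30 components, 15 neighbours and Leiden resolution 1, without integration, and gave 34 clusters, named by at least 3 detected markers with a mean fold of at least 2; these names were rebuilt and can differ from the authors'. Of the 9 genes C3, C4b and Serping1 were among the variable genes, so a second clustering left out complement genes. Thinning to 1000 UMIs left out no kept cell.

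Counts were summed per class and library and fitted over all 4 groups with edgeR 4.0.16 (quasi-likelihood test, TMM, filterByExpr, two-sided, Benjamini-Hochberg; R 4.3.3), and by DESeq2 1.42.0 as an alternative. The filter asks for enough counts in as many libraries as the smallest group holds. A gene can thus pass only through groups where it is high. The SE of a log2 fold change is its size over the square root of the F statistic. A comparison on the Clec7a-deficient background is SOD1G93A/Clec7a-KO against Clec7a-KO. Both comparisons of the transgene and both of Clec7a share groups within the fit. The fit was also run on simulated counts, with no outcome given here. The 9 genes, the list of 55 other complement genes and the marker lists were chosen with earlier results of these data known. Other complement genes named were those called in microglia in SOD1G93A against nTg at a mean of 5 CPM or more, at most 5 a direction, and those called elsewhere. The 3 genes with the highest correlation to each member were named. A few genes that these rules take in are not reported here. Gene positions are from GENCODE vM21 (GRCm38). No column of another sample was present (0 left out). UMI intervals were not computed, and limits of depth cover counting error only.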

Additional observations from a re-analysis of the deposited data

Results flagged for a closer look

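Within groups of 4 libraries, 6 of 38 sets of values held a library far from its group by Dixon's 95% criterion, which chance gives in about 1 of 20 sets. C1qb in microglia of SOD1G93A/Clec7a-KO replicate 2 was at 13063 CPM, against 9286 to 9622 in the others. C3 in microglia of Clec7a-KO replicate 1 was at 8.24 CPM (275 UMIs), against 0.78 to 1.68. In astrocytes, C4b of Clec7a-KO replicate 4 was low at 88.9 CPM, against 111 to 114, and C4b of SOD1G93A/Clec7a-KO replicate 3 was high at 627, against 392 to 419. Serping1 of Clec7a-KO replicate 2 stood high both in astrocytes (13.8 CPM from 27 UMIs, against 1.81 to 3.63) and in ependymal cells (8.49 CPM from 116 UMIs, against 5.64 to 5.92).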

How the results depend on the processing

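Of the log2 fold changes of named genes under the alternatives, 2136 kept their direction and their side of the threshold, 145 were no longer called, 3 became called and 16 changed sign. Counts of called genes stayed within 1.5 times in 456 cases and moved in 39. Using only the 10 libraries with Ddx3y above Xist, the 11 numbered below 13, or total UMIs was chosen after seeing the data. In each case the cause was not tested, and the first of these leaves 1 nTg library, assumed to vary like the others.

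In SOD1G93A against nTg, fewer members were called with Ddx3y above Xist in microglia, astrocytes, endothelial and ependymal cells, and fewer other complement genes in microglia. With sex as a covariate the counts were 3, 2 and 1 in astrocytes, endothelial and ependymal cells. Except with no filter on low counts, shares of all genes called under the alternatives are not given. No move of a count is thus shown to be particular to complement genes. In the Clec7a-deficient pair the 5 ependymal members became 3 with DESeq2 and with only the 2 groups compared, and were fewer with Ddx3y above Xist. With no filter on low counts they became 9, beside 2.26% of 30628 genes. The 4 endothelial members became 8 with no filter, beside 1.2% of 27965 genes. In SOD1G93A/Clec7a-KO against SOD1G93A astrocytes, 0 became 6 with no filter, beside 0.903% of 26475 genes, and 1 with library number as covariate.

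Leaving out 1 library at a time gave 7 to 14 other complement genes in microglia in SOD1G93A against nTg, 4 to 7 members in astrocytes, 3 to 6 in endothelial and 3 to 9 in ependymal cells. It gave 0 to 6 endothelial and 3 to 8 ependymal members in the Clec7a-deficient pair, and 0 to 1 astrocytic members between the transgenic groups. Shares of all genes called are not given for these counts or for the replicate block below. Same-numbered libraries deviated together, at a correlation over 0.1, in 9 of 19 pairs (-0.18 to 0.38, median 0.093). Libraries with different numbers did so in 13 of 54 pairs (-0.49 to 0.50, median -0.038). Whether equal numbers pair libraries was not tested, and the main fit did not pair them. A replicate block moved the ependymal count in the Clec7a-deficient pair to 8, and changed the side of the threshold for 0 of 89 single genes.

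Signs changed for microglial C3ar1 with total UMIs (-0.15 in SOD1G93A against nTg and -0.20 in the Clec7a-deficient pair, where the median of all genes moved to -0.448 and -0.513) and for Itgam in SOD1G93A against nTg with Ddx3y above Xist (0.0078). C5ar1 in SOD1G93A against nTg became 0.70 with library number, 0.059 with sex as covariate, and -0.29 to 0.013 with 1 library left out (the latter without nTg replicate 2). In the Clec7a-deficient pair C5ar1 became -0.055 with total UMIs, -0.13 with Ddx3y above Xist, -0.73 below library number 13 and -0.14 to 0.86 with 1 library left out (the former without SOD1G93A/Clec7a-KO replicate 4). Between the transgenic groups astrocytic C3 became -0.061 at 10% mitochondrial UMIs and -0.15 to 0.40 with 1 library left out (below 0 without SOD1G93A/Clec7a-KO replicate 1 or 2), and C4b became -0.045 below library number 13 and -0.060 to 0.34 with 1 left out (below 0 without SOD1G93A replicate 1 or SOD1G93A/Clec7a-KO replicate 3).

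Depth limited the least abundant members: Serping1 in microglia and C5ar1 in astrocytes rested on few UMIs per library, and a level that gives fewer than 3 UMIs in a library could not be told from 0. Few cells were a limit too: SOD1G93A/Clec7a-KO replicate 4 had 30 astrocytes and 28 ependymal cells, the latter with 2 C4b UMIs.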
